A study of Mus musculus with 5 samples.

Results

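The genes described here are Trp53, which encodes the transcription factor p53, and 9 genes of its circuit: Mdm2, Mdm4, Cdkn1a, Aen, Ccng1, Phlda3, Zmat3, Eda2r and Trp53inp1. They were taken by name, with symbols matched to mouse Ensembl identifiers, and they are 10 of the 55487 gene identifiers in the table. Their RNA was measured by bulk RNA sequencing of common lymphoid progenitors (CLPs), marrow cells that can give rise to lymphocytes of the B, T and natural killer lineages, sorted as lineage-negative, CD127-positive and Flt3-positive. SF1 mice, with SclCre, a Cre driven by sequences of the blood stem cell gene Scl, and the activated kinase JAK2-V617F of myeloproliferative neoplasms, gave 3 libraries, and wild-type (WT) mice gave 2. The labels put all 5 libraries at 16 weeks after tamoxifen, the drug that switches on an inducible Cre. The age of the mice, whether a library pools animals, and the share of sorted SF1 cells that carried the mutant are not stated in the labels. Whether each library is another animal is not stated either, and the p-values therefore reflect only how far these libraries spread, which may be technical.

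p53 is held at a low level by MDM2, a ubiquitin ligase, and is kept inactive by MDM2 and its relative MDM4. When DNA is damaged or a cell is stressed this hold is released by modification of the proteins, so that p53 can become active with little change in its own RNA. Active p53 then raises the RNA of its targets, which include Mdm2 itself, so that the pathway limits itself. In blood progenitors p53 is known for limiting the cell cycle and survival of stem and lymphoid cells after damage.

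The DNA element that p53 binds is made of 2 copies of a 10-letter motif, and the promoters of these genes were searched for it. Promoter windows of RefSeq (GRCm38.p6, 250 bases before to 50 after a start) were found for 8 of the 10 genes, 11 windows in all, and Zmat3 and Trp53inp1 had none. With both copies adjacent, the fixed C and G of each copy kept and all of its 20 letters compared, the element was present with 1 mismatch in 1 window of Cdkn1a and in that of Ccng1, which holds for 0.067% of 32851 RefSeq windows. It was present with 3 mismatches in Aen and Trp53, a level reached by 1.38% of the windows. Thus 4 of the 8 genes had a match within 3 mismatches. The windows of Mdm2, Mdm4, Phlda3 and Eda2r had none, nor had the other window of Cdkn1a. The element reads the same on both strands, and the limit of 3 mismatches was chosen after the sequences were seen. The capitals mark the element, each line runs 5′ to 3′ on the gene's own strand, and the 4 stretches show the genes with the closest matches, among them Aen, the only one of the 9 tested genes whose RNA passed the test.
Cdkn1a, chr17:29090878-29090975, plus strand: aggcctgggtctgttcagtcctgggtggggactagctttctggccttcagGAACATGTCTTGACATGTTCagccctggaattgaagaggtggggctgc
Ccng1, chr11:40755412-40755531, minus strand: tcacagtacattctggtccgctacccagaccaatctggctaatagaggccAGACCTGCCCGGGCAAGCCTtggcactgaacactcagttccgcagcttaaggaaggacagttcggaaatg
Aen, chr7:78895932-78895961, plus strand: aagccGGGCTTGTCCGGGCAAGGAGcttcc
Trp53, chr11:69580234-69580353, plus strand: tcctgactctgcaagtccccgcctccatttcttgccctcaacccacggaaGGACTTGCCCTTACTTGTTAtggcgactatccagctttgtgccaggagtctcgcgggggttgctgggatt
A match in letters is a description of the sequence and does not show that p53 was bound there, and the windows leave out the introns, where other elements of these genes may lie.

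Libraries held between 9350767 and 11290082 counts in SF1 and held 20424296 and 8894288 counts in WT replicates 1 and 2. Levels are given as CPM, the usual counts relative to library size, here scaled with TMM, and 1 count stood for between 0.049 and 0.112 unscaled CPM. The sort genes Il7r (CD127) and Flt3 summed to between 2057 and 2131 CPM in SF1 and between 1845 and 1882 CPM in WT. With edgeR, Il7r was 1.25-fold higher in SF1 (adjusted p = 0.0318), and Flt3 did not pass an adjusted p of 0.05 (adjusted p = 0.233). Markers of other cells were unequal between the groups: 12 of 12 neutrophil and monocyte markers were higher in SF1, with a summed level between 1402 and 4579 CPM in SF1 and between 177 and 233 CPM in WT. Plasmacytoid dendritic markers summed to between 2736 and 3265 CPM in SF1 and between 1556 and 1715 CPM in WT, with 5 of 6 tested higher. Erythroid markers summed to between 76.7 and 102 CPM in SF1 and between 181 and 207 CPM in WT, with 6 of 8 tested lower. Of all 14423 genes tested with edgeR's quasi-likelihood test, 2382 (16.5%) passed an adjusted p of 0.05, 6.77% higher and 9.74% lower in SF1.

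Of the 10 genes, 1 passed the threshold. Aen was 2.01-fold lower in SF1, and the other 8 genes that could be tested, Trp53 and the canonical targets Cdkn1a and Mdm2 among them, did not pass. At an unadjusted p under 0.05 as well as with DESeq2, Aen was again the only one of these that passed. The remaining gene, Eda2r, was too low to test. The 1 of 9 called is 11.1% of the tested genes, below the 16.5% of all genes tested. The median log2 fold change of the 9 was 0.00, against 0.02 over all genes tested, and 7 of the 9 lay within the interquartile range of all tested genes, which ran from -0.22 to 0.26. Of the 9, 7 had an absolute log2 fold change of at most 0.2, as had 43.1% of all genes tested.

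**Figure D1:**
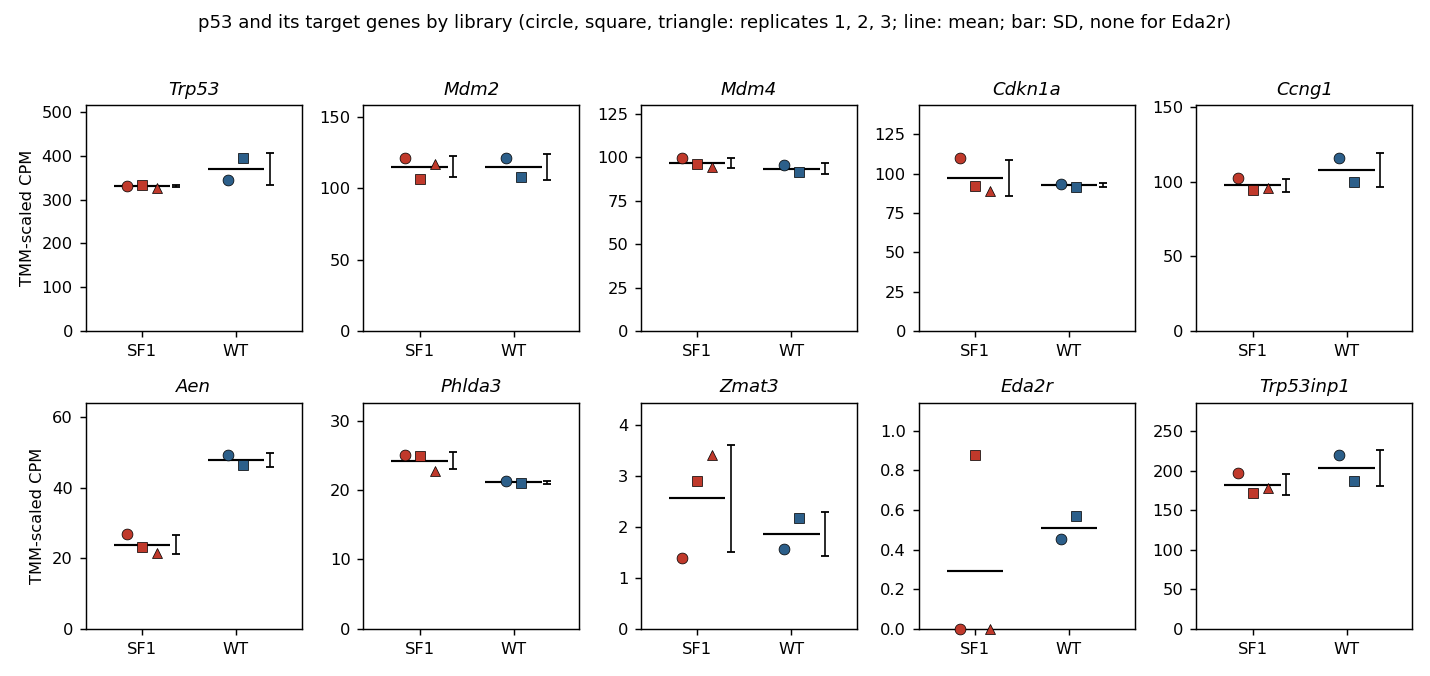
TMM-scaled CPM (vertical axes, each from 0) of the 10 genes in each SF1 library (left) and WT library (right), with circles, squares and triangles for replicates 1, 2 and 3; lines are means and bars are SDs (n = 3 and 2, none for Eda2r). Aen lies between 21.5 and 26.9 CPM in SF1 and at 49.2 and 46.5 CPM in WT, while the levels of most of the other genes lie close together in both groups.

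Trp53 (ENSMUSG00000059552, GRCm38 chromosome 11, 69580359 to 69591873, plus strand) was at 332, 332 and 328 CPM in SF1 replicates 1, 2 and 3, against 344 and 396 CPM in WT replicates 1 and 2. All SF1 libraries lay below both WT libraries, though by little in the case of WT replicate 1, and groups that do not overlap were found for 49.0% of all genes tested. The means were 330 ± 2.54 CPM over the SF1 libraries (SD, n = 3) and 370 ± 36.8 CPM over the WT libraries (n = 2), a log2 fold change of -0.16 (SE 0.08, 95% interval -0.35 to 0.02, adjusted p = 0.214). The SD in SF1 was 0.768% of the mean, below the 1.69% that counting alone gives, and in WT it was 9.96%. The processed pseudogene Trp53-ps, on chromosome 17, had between 0 and 5 counts in the 5 libraries, and no other annotated gene shares exonic bases with Trp53.

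Of the 2 inhibitors of p53, Mdm2 is also one of its main targets. Mdm2 (chromosome 10, 117688875 to 117710758, minus strand) was at 121, 107 and 117 CPM across the SF1 replicates, compared with 121 and 108 CPM across the WT replicates. The groups overlapped fully, with means of 115 ± 7.58 CPM over the SF1 libraries (n = 3) and 115 ± 9.07 CPM over the WT libraries (n = 2). The log2 fold change was 0.00 (SE 0.09, 95% interval -0.21 to 0.22, adjusted p = 0.982), so that a fold change of more than 1.16 or less than 0.865 lay outside the interval. Its sign turned under 9 of 12 alternatives, where values ran from -0.08 to 0.09 with no call.

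Mdm4 (chromosome 1, 132959484 to 133030561, minus strand), which blocks p53 without degrading it, was at 99.9, 95.9 and 94.3 CPM across the SF1 replicates, compared with 95.6 and 91.3 CPM across the WT replicates. The groups overlapped (log2 fold change 0.05, SE 0.08, 95% interval -0.14 to 0.24, adjusted p = 0.744). Mdm4 was also steady among libraries of 1 group, with an SD of 2.97% of the mean in SF1 and 3.23% in WT, close to the 3.13% and 2.72% of counting alone. The Mdm4 to Mdm2 ratio, in CPM per kb of exon, was 0.282, 0.309 and 0.276 in the SF1 libraries and 0.271 and 0.290 in the WT libraries, again with overlap.

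Of the targets that slow the cell cycle, Cdkn1a encodes p21, the inhibitor of cyclin-dependent kinases through which p53 arrests cells. Cdkn1a (chromosome 17, 29090976 to 29100727, plus strand) was at 110, 92.3 and 89.2 CPM across the SF1 replicates, compared with 93.4 and 91.7 CPM across the WT replicates. SF1 replicate 1 was the highest of the 5 and SF1 replicate 3 the lowest, so the WT values lay inside the SF1 range. The means were 97.3 ± 11.4 CPM over the SF1 libraries (n = 3) and 92.6 ± 1.25 CPM over the WT libraries (n = 2) (log2 fold change 0.07, SE 0.11, 95% interval -0.17 to 0.31, adjusted p = 0.702). An unconfirmed transcript on the opposite strand covers 7.68% of its exonic bases, and without strand information its reads cannot be told apart from those of Cdkn1a there.

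Ccng1 (chromosome 11, 40748552 to 40755311, minus strand) encodes cyclin G1, which acts back on MDM2 through the phosphatase PP2A. It was at 103, 94.4 and 95.7 CPM across the SF1 replicates, compared with 116 and 100 CPM across the WT replicates. SF1 replicate 1 lay above WT replicate 2, so the groups overlapped (log2 fold change -0.15, SE 0.10, 95% interval -0.37 to 0.06, adjusted p = 0.314). After correction for GC content and length its log2 fold change was -0.34 (SE 0.11, adjusted p = 0.0564), still short of the threshold.

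Among the targets tied to cell death, Aen was the exception. Aen (ENSMUSG00000030609, chromosome 7, 78895854 to 78911209, plus strand) encodes apoptosis-enhancing nuclease, an exonuclease that p53 induces and that cuts nucleic acids in dying cells. It was at 26.9, 23.3 and 21.5 CPM in SF1 replicates 1, 2 and 3, against 49.2 and 46.5 CPM in WT replicates 1 and 2. All 3 SF1 libraries were well below both WT libraries, at 253, 266 and 234 raw counts against 977 and 408. The means were 23.9 ± 2.75 CPM over the SF1 libraries (SD, n = 3) and 47.8 ± 1.91 CPM over the WT libraries (n = 2), and the log2 fold change was -1.00 (SE 0.13, 95% interval -1.29 to -0.72, adjusted p = 0.00153). Only 2.34% of all genes tested had a lower log2 fold change. Set against Trp53 in the same library, Aen in CPM per kb was 0.0566, 0.0489 and 0.0458 of Trp53 in SF1 and 0.0997 and 0.0818 in WT, so the 2 genes did not keep 1 ratio.

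The call of Aen held under each of the 12 alternatives, with log2 fold changes from -1.09 to -0.85 and adjusted p from 1.73e-10 to 0.0133. In the 2 of these that leave out a WT library, the remaining WT library is assumed to vary like the SF1 libraries. In bulk RNA, fewer cells that express Aen and less Aen RNA per cell cannot be told apart. The neutrophil and monocyte markers, at a summed 1402 to 4579 CPM in SF1 and 177 to 233 CPM in WT, differed between the groups in the direction opposite to Aen, and their part in the result was not tested.

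Trp53inp1 (chromosome 4, 11156431 to 11174379, plus strand) encodes a stress-induced nuclear protein that promotes p53 activity and autophagy. It was at 197, 171 and 178 CPM across the SF1 replicates, compared with 219 and 187 CPM across the WT replicates. SF1 replicate 1 lay above WT replicate 2, and the gene did not pass (log2 fold change -0.16, SE 0.10, 95% interval -0.38 to 0.06, adjusted p = 0.303). Phlda3 (chromosome 1, 135766119 to 135769136, plus strand) encodes a small protein that blocks the survival kinase AKT at the membrane. It was at 25.0, 24.9 and 22.8 CPM across the SF1 replicates, compared with 21.2 and 21.0 CPM across the WT replicates. All SF1 libraries were above both WT libraries, by a log2 fold change of 0.20 (SE 0.13, 95% interval -0.09 to 0.49), and the difference did not pass (adjusted p = 0.325).

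The remaining 2 genes were near the lower limit of these libraries. Zmat3 (chromosome 3, 32334792 to 32366014, minus strand), an RNA-binding zinc finger protein gene, had 13, 33 and 37 counts in the SF1 libraries and 31 and 19 counts in the WT libraries. This is 1.38, 2.89 and 3.40 CPM in SF1, against 1.56 and 2.16 CPM in WT. SF1 replicate 1 was the lowest of the 5 libraries and SF1 replicate 3 the highest, and the interval of the log2 fold change was wide (0.50, SE 0.44, 95% interval -0.49 to 1.49, adjusted p = 0.475). As a fold change the interval ran from 0.713 to 2.82. Eda2r (X chromosome, 97333840 to 97377216, minus strand), a receptor of the tumour necrosis factor receptor family, had 0, 10 and 0 counts in the SF1 libraries and 9 and 5 counts in the WT libraries. It did not reach the filter on low counts, 1 SF1 library alone held its SF1 reads, and with no filter its adjusted p was 0.699.

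**Figure D2:**
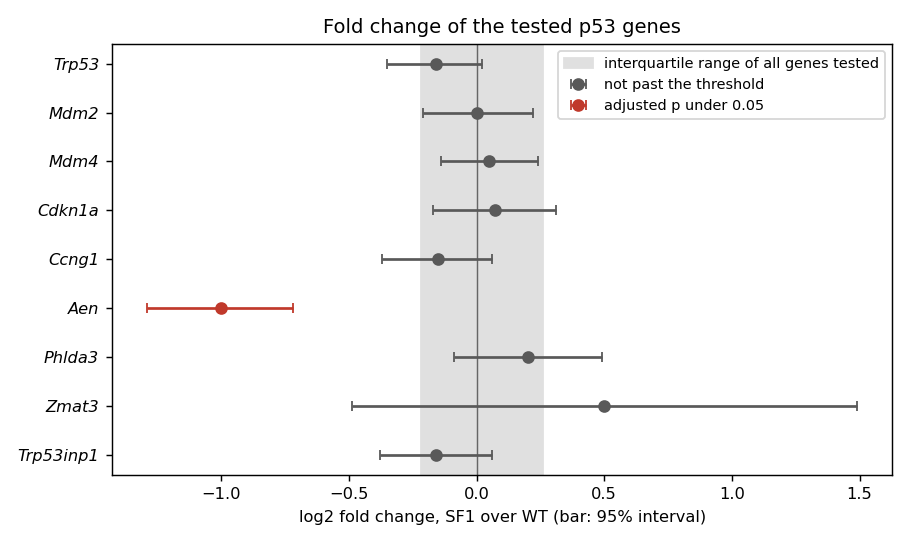
Log2 fold change of SF1 over WT (horizontal axis) for the 9 genes tested, with 95% intervals as bars; the grey band is the interquartile range of all genes tested, -0.22 to 0.26. Aen, at -1.00, is the only gene whose interval leaves 0 out, and Zmat3 has the widest interval, -0.49 to 1.49.

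Compared per length, in CPM per kb of exon, the 10 genes spanned a wide range of levels. Trp53 was the highest, at 81.7 ± 0.627 in SF1 and 91.5 ± 9.11 in WT (n = 3 and 2), above 96.0% of all genes tested. Trp53inp1, Ccng1 and Cdkn1a followed at 28.1, 27.8 and 27.4 in SF1 and 31.4, 30.8 and 26.1 in WT. Neither Trp53inp1 and Ccng1 in either group nor Ccng1 and Cdkn1a in SF1 differed beyond the range of the libraries, while Ccng1 was above Cdkn1a in both WT libraries. Mdm2 came next at 22.7 in SF1 and 22.5 in WT, then Phlda3 at 15.5 and 13.5, each apart from its neighbours in both groups. Mdm4 was at 6.53 in SF1 and 6.32 in WT, and Aen at 4.12 in SF1 and 8.24 in WT. Mdm4 was thus above Aen in the SF1 libraries and below it in both WT libraries. Zmat3 and Eda2r, at 0.224 and 0.0496 in SF1 and 0.163 and 0.0868 in WT, were the lowest, and Zmat3 lay above only 1.62% of the genes tested. Exonic length here is that of all annotated exons together, and exon use was not measured, so a gene with exons that these cells do not use would be set too low.

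**Figure D3:**
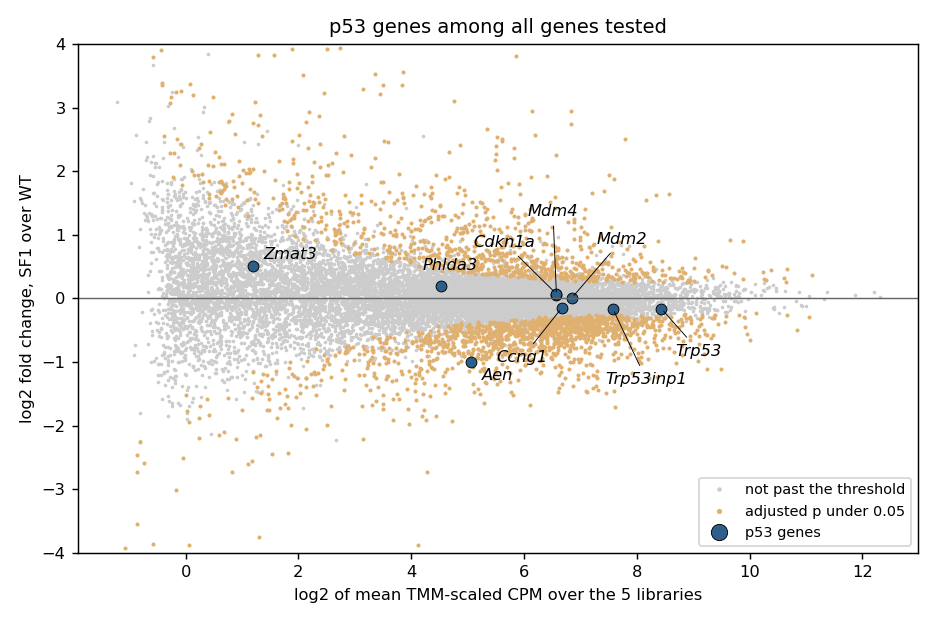
Log2 of the mean CPM over the 5 libraries (horizontal axis) and log2 fold change of SF1 over WT (vertical axis) of all 14423 genes tested, with the 9 tested p53 genes in blue; 45 genes lie beyond the plotted limit of 4. Most p53 genes lie among the genes that did not pass, and Aen, at -1.00, lies among the lower ones.

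The 3 genes whose levels over the 5 libraries lay closest to those of Trp53, by the mean absolute difference of centred log2 CPM, were Snrpd3, Trabd and Pbdc1, at 0.014, 0.014 and 0.015 on the log2 scale, against a median of 0.158 over 9823 genes with at least 5 CPM. For Cdkn1a they were Ddx23, Lrrc49 and Rnf126, at 0.022, 0.024 and 0.025, against a median of 0.165. With 5 libraries such closeness is a description only.

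Other genes of the pathway were read from wider lists. The unequal markers of other cells given above hold for the same libraries, and their part in these results was not tested. Of 24 upstream regulators, 21 were tested: 4 were higher, 2 were lower and 15 did not pass, 28.6% called against 16.5% of all genes tested, with a median log2 fold change of -0.02. At an unadjusted p under 0.05, 6 were higher and 4 lower, and DESeq2 called 6 higher and 2 lower. After correction for GC content and length, 6 were higher. Sirt1, a deacetylase that acts on p53, was at 29.5, 31.7 and 40.8 CPM across the SF1 replicates, compared with 9.26 and 9.34 CPM across the WT replicates. All SF1 libraries were far above the WT level, a 3.66-fold rise (log2 fold change 1.87, SE 0.18, adjusted p = 4.96e-04). Cop1, a ubiquitin ligase that can degrade p53, was at 57.4, 73.8 and 64.1 CPM across the SF1 replicates, compared with 24.6 and 19.6 CPM across the WT replicates. It rose 2.92-fold (adjusted p = 5.59e-04), again with groups far apart.

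Usp7, a deubiquitinase of both MDM2 and p53, rose 1.77-fold to 112 ± 5.43 CPM over SF1 libraries, against 63.9 ± 13.4 CPM over WT libraries (n = 3 and 2, adjusted p = 0.00403). Kmt5a, a methyltransferase that modifies p53 and histone H4, rose 1.55-fold (adjusted p = 0.00605). Usp10, a deubiquitinase of p53, fell 1.39-fold (adjusted p = 0.00440) and Daxx, an adaptor in the MDM2 complex, fell 1.53-fold (adjusted p = 0.0353). Sirt1, Cop1, Usp7 and Kmt5a kept their calls under all 12 alternatives. The log2 fold change of Usp10 was -0.48, and -0.30 after correction for GC content and length (adjusted p = 0.0242). Daxx lost its call without SF1 replicate 2 or 3 or without WT replicate 1 or 2 (adjusted p = 0.0578, 0.0805, 0.185 and 0.0546).

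The other 15 regulators tested did not pass with edgeR. Among them were Trp53bp1, a damage sensor at DNA breaks (147 ± 13.1 CPM over SF1 libraries and 171 ± 22.1 CPM over WT libraries, adjusted p = 0.187), and Rpl5, a ribosomal protein that binds MDM2 (193 ± 11.5 and 189 ± 13.2 CPM in SF1 and WT, adjusted p = 0.811). The damage kinase genes Atm and Chek1, named here after their values were seen, had log2 fold changes of -0.34 and -0.30 (adjusted p = 0.0851 and 0.0730). Cdkn2a, which encodes the MDM2 inhibitor ARF, and the p53 relative Trp73 had 0 counts in all 5 libraries, which allows up to 3 counts or between 0.147 and 0.337 CPM in a library.

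Of 60 further p53 targets, 53 were tested: 3 were higher, 7 were lower and 43 did not pass, 18.9% called against 16.5% of all genes tested. Their median log2 fold change was -0.13, against 0.02 over all genes. The number higher was 5 without SF1 replicate 1 and 1 without SF1 replicate 3, and the number lower was 3 without WT replicate 1. After correction for GC content and length, 5 were higher.

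**Figure D4:**
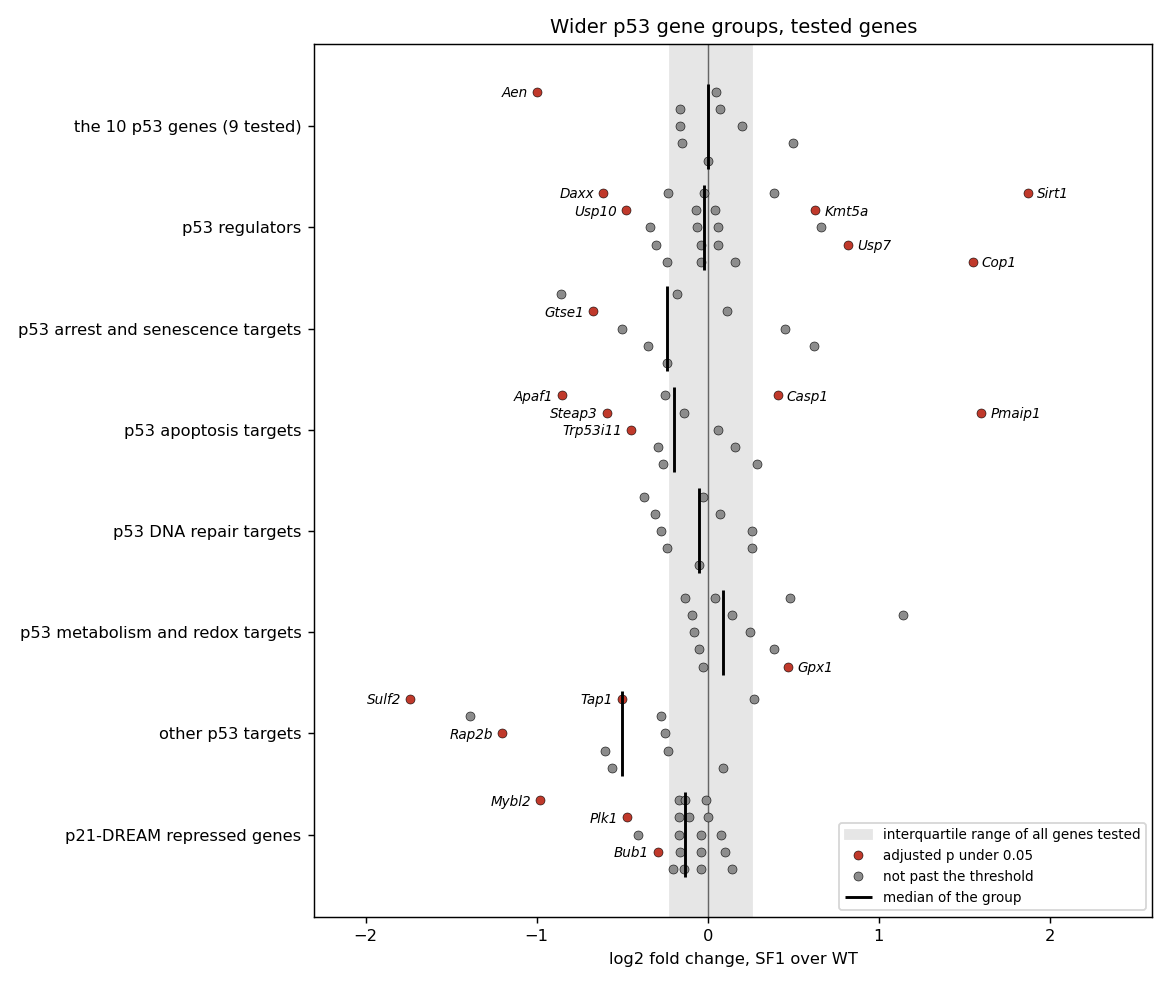
Log2 fold change of SF1 over WT (horizontal axis) of each tested gene of the 10 p53 genes and of 7 wider lists (rows); red points passed an adjusted p of 0.05 and are named, black lines are medians, and the grey band is the interquartile range of all genes tested. Sirt1, at 1.87, lies farthest to the right and Sulf2, at -1.74, farthest to the left, and the row of DNA repair targets has no red point.

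The targets of the death pathways went both ways. Of 14, 12 were tested: edgeR called 2 higher and 3 lower, 41.7% against 16.5% of all genes tested, and 7 did not pass (median log2 fold change -0.20). At an unadjusted p under 0.05, 3 were higher and 3 lower, and DESeq2 called 2 higher and 3 lower. Apaf1, the scaffold that activates caspases once cytochrome c is released, was at 39.6, 36.3 and 40.2 CPM across the SF1 replicates, compared with 79.6 and 59.0 CPM across the WT replicates. It fell 1.80-fold (log2 fold change -0.85, SE 0.14, adjusted p = 0.00465), with no overlap and under all 12 alternatives, in the same direction as Aen. Pmaip1, which encodes the BCL2 antagonist NOXA, was at 5.11, 8.14 and 7.44 CPM across the SF1 replicates, compared with 1.71 and 3.07 CPM across the WT replicates. It rose 3.02-fold (adjusted p = 0.0161) and missed the threshold when SF1 replicate 2, SF1 replicate 3 or WT replicate 1 was left out (0.0644, 0.0506 and 0.136).

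Casp1, an inflammatory caspase gene of myeloid cells, rose 1.33-fold (adjusted p = 0.0163), but its log2 fold change of 0.41 came to 0.08 (adjusted p = 0.609) after correction for GC content and length. Leaving out SF1 replicate 3 or WT replicate 1 also ended the call of Casp1 (adjusted p = 0.0575 and 0.125). Trp53i11, a target of unclear role, fell 1.37-fold (adjusted p = 0.0125), with 0.0514 when SF1 replicate 2 and 0.0793 when WT replicate 1 was left out. Steap3, a metalloreductase gene, fell 1.51-fold (adjusted p = 0.0278), with 0.0519 after correction for GC content and length and 0.0546, 0.0907 and 0.220 when SF1 replicate 2, SF1 replicate 3 or WT replicate 1 was left out. The death effector Bid and the apoptosis regulator Siva1 did not pass, at 146 ± 10.3 and 84.2 ± 4.33 CPM over SF1 libraries and 130 ± 11.4 and 80.9 ± 0.533 CPM over WT libraries. Bbc3, which encodes PUMA, and Bax were named after their values were seen: their log2 fold changes were -0.29 and 0.29 (adjusted p = 0.661 and 0.0805).

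Of 9 DNA repair targets tested with edgeR, 0 passed (median log2 fold change -0.05), while 1 was higher and 1 lower at an unadjusted p under 0.05 and 1 was lower with DESeq2. Xpc, the damage sensor of nucleotide excision repair, was at 380 ± 13.9 CPM over SF1 libraries and 388 ± 16.7 CPM over WT libraries (adjusted p = 0.841).

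Among metabolic and redox targets, 1 of 12 tested with edgeR was higher and 0 were lower (median 0.09), 8.33% called against 16.5% of all genes tested. At an unadjusted p under 0.05, 3 were higher and 0 lower, and with DESeq2 1 was higher and 0 lower. Gpx1, a glutathione peroxidase, was at 1825 ± 74.9 CPM over SF1 libraries and 1322 ± 187 CPM over WT libraries (n = 3 and 2), a 1.38-fold rise (adjusted p = 0.0102) that held under all 12 alternatives. Sesn1, which restrains mTORC1, was at 320 ± 2.57 CPM over SF1 libraries and 312 ± 22.2 CPM over WT libraries (adjusted p = 0.791), and the lipase gene Abhd4 at 149 ± 6.84 CPM over SF1 libraries and 135 ± 6.58 CPM over WT libraries (adjusted p = 0.292).

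Among arrest targets, 1 of 9 tested with edgeR was lower and 0 were higher (median -0.24), 11.1% called against 16.5% of all genes tested. At an unadjusted p under 0.05, 2 were higher and 3 lower, and with DESeq2 1 was higher and 2 lower. Gtse1, a mitotic gene that also exports p53 from the nucleus, fell 1.59-fold (adjusted p = 0.0208) and missed the threshold when SF1 replicate 3, WT replicate 1 or WT replicate 2 was left out (0.0583, 0.0892 and 0.0565). Btg2, an antiproliferative gene, was at 132 ± 7.62 CPM over SF1 libraries and 121 ± 12.3 CPM over WT libraries (adjusted p = 0.454), and Pml, of the nuclear bodies that hold p53, at 155 ± 24.8 CPM over SF1 libraries and 197 ± 15.3 CPM over WT libraries (adjusted p = 0.0894).

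In the group of targets with other roles, 3 of 11 tested with edgeR were lower and 0 were higher (median -0.50), 27.3% called against 16.5% of all genes tested, of which 9.74% were lower. At an unadjusted p under 0.05, 4 were lower and 0 higher, and DESeq2 called 3 lower and 0 higher. Tap1, the peptide transporter of antigen presentation, was at 370, 336 and 334 CPM across the SF1 replicates, compared with 474 and 506 CPM across the WT replicates, and fell 1.41-fold (adjusted p = 0.00413). Its log2 fold change was -0.50, and -0.30 after correction for GC content and length (adjusted p = 0.0492). Rap2b, a small GTPase gene, fell 2.30-fold (adjusted p = 0.00627). Sulf2, a heparan sulfatase gene, fell 3.33-fold to 5.96 ± 2.61 CPM over SF1 libraries, against 19.5 ± 5.51 CPM over WT libraries (adjusted p = 0.00729), with 0.0722 when WT replicate 1 was left out. Ckap2 and Dgka did not pass (adjusted p = 0.173 and 0.214).

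p53 also lowers cell cycle genes, through p21 and the DREAM repressor complex. Of 20 such genes, edgeR called 3 lower and 0 higher, and 17 missed the threshold, 15.0% called against 16.5% of all genes tested, with a median log2 fold change of -0.14. At an unadjusted p under 0.05, 5 were lower and 0 higher, and DESeq2 called 4 lower and 0 higher. Mybl2, a transcription factor of the S and G2 phases, was at 48.2, 39.4 and 38.4 CPM across the SF1 replicates, compared with 85.3 and 80.1 CPM across the WT replicates. It fell 1.97-fold (log2 fold change -0.98, SE 0.12, adjusted p = 0.00140), with groups far apart and under all 12 alternatives. The mitotic kinase genes Plk1 and Bub1 fell 1.39-fold and 1.22-fold (adjusted p = 0.0265 and 0.0491). Plk1 lost its call without SF1 replicate 1 or 2 or WT replicate 2 (0.0550, 0.0764 and 0.124), and among the fits that leave out 1 library Bub1 lost it without SF1 replicate 2 or 3 or WT replicate 1 or 2 (0.124, 0.141, 0.240 and 0.0933). Top2a, a topoisomerase of dividing cells, and the replication gene Mcm5 did not pass, at 704 ± 9.92 and 652 ± 64.7 CPM over SF1 libraries and 773 ± 12.2 and 736 ± 30.4 CPM over WT libraries.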

How the data were processed

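Bulk RNA of sorted marrow progenitors was measured in 3 SF1 and 2 WT libraries. Per the labels' protocols, SMART-Seq (version 2 or 4, not given by library) made the cDNA and Nextera XT the libraries, without molecular identifiers or strand. The authors deposited unnormalized whole-number counts for each gene. The submitters' processing notes name HISAT2 2.2.1, featureCounts 2.0.1, FastQC and the build GRCm38. The annotation and strand setting were not given in the sources used here. Symbols, positions and exonic lengths came from GENCODE M21, which matched 55227 of 55487 identifiers. edgeR 4.0.16 (R 4.3.3) was run with TMM, a quasi-likelihood F test on the 14423 genes that passed filterByExpr (minimum count 10), without covariates, Benjamini-Hochberg adjusted (threshold 0.05). Fold changes compare SF1 with WT on the log2 scale, with SEs derived from F and 95% intervals. The fit was tested on simulated data. Limits for 0 counts cover counting error only.

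Alternatives were DESeq2 1.42.0, its size factors, no and a stricter filter (10 CPM in 2 libraries), a replicate block, a GC and length correction, both together, and leaving out each library. Members and lists were chosen with earlier results of these data known. Named genes were, per list, up to 6 past the threshold with the smallest p and the 2 highest not passing. For 1 gene that this rule names, the result is not reported here.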

Additional observations from a re-analysis of the deposited data

How the results depend on the processing

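Aen was called lower under each of the 12 alternatives, and none of the other 8 tested genes was called under any. The sign of 2 genes near 0 turned: Mdm2 came to -0.00 with DESeq2 size factors and with GC and length correction, -0.01 with DESeq2, with no filter and with the replicate block, -0.02 with the block and correction together, and -0.08 to 0.09 when 1 library was left out. Leaving out 1 library took Cdkn1a from -0.03 (without SF1 replicate 1) to 0.13, Trp53 from -0.26 (without WT replicate 1) to -0.06 (without WT replicate 2), Trp53inp1 and Ccng1 from -0.28 and -0.26 (without WT replicate 2) to -0.04 each (without WT replicate 1), and Zmat3 from 0.25 (without WT replicate 1) to 0.79 (without SF1 replicate 1), none called. A lone WT library is assumed to vary like the SF1 libraries. Nothing in the labels says that replicate numbers pair the libraries. Same-numbered deviations correlated at 0.04 and 0.06, which cannot settle it, because the deviations of 2 WT libraries mirror each other. With the replicate block, 1519 genes were called in place of 2382, 574 of them higher in place of 977. The block ended the calls of Casp1, Steap3 and Bub1 (adjusted p = 0.0640, 0.112 and 0.162), and with GC and length correction those of Usp10, Tap1, Trp53i11, Casp1 and Steap3 (0.0819, 0.114, 0.0615, 0.755 and 0.175). It took Zmat3 to 0.14. Leaving out 1 library gave between 986 and 2170 calls, 464 to 905 higher and 522 to 1265 lower, fewest without WT replicate 1, the deepest library. Among regulators, 1 in place of 2 was lower with block and correction together, and 1 to 2 when 1 library was left out. Among further targets, 6 in place of 3 were higher with no filter and 5 with GC and length correction, with or without the replicate block; leaving out 1 library gave 1 to 5 higher and 3 to 10 lower. Among the p21-DREAM genes, 1 to 2 in place of 3 were lower when 1 library was left out. The cause of these changes was not tested. Zmat3 and Pmaip1 had too few counts for a value under the stricter filter, and depth limits what can be said of Zmat3 and Eda2r.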
